A study of Mus musculus with 12 samples.

Results

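Acute phase genes encode plasma proteins that the liver makes in amounts set by inflammation. The 10 studied here were Lrg1, Saa1, Saa2, Saa3, Orm1, Orm2, Hp, Lcn2, Hamp and Serpina3n. They were sought by gene symbol in the platform annotation, where a symbol with several probe sets would have been represented by the brightest. All 10 of 10 were found among 19505 genes, each with exactly 1 probe set, so signal level chose none of them. The list itself was nevertheless chosen by symbol with earlier log2 differences between the groups in these data known, so the differences of its genes are given as descriptions. Values are log2 signals, 1 per gene and liver, so a step of 1 is a doubling of signal.

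Livers came from adult male C57BL/6J mice aged 4 to 5 months, kept at 23 °C on standard chow. The 6 sons of UCP1-KO dams (arrays 7 to 12) were compared with the 6 sons of WT dams (arrays 1 to 6), 1 array per mouse. UCP1 is the brown fat protein that lets mitochondria release energy as heat. Dams of either genotype were mated with heterozygous sires, and all 12 sons are labelled heterozygous, controls included. The allele lacking Ucp1 therefore came from the mother in the first group and from the father in the second, and this cannot be told apart from the mother's own genotype. The labels name neither dams nor litters. Every p-value below therefore rests on differences between mice that may share a litter.

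In an acute phase response, interleukin-6 and its relatives act on hepatocytes through the receptor chain gp130 and the transcription factor STAT3, while interleukin-1 and tumour necrosis factor act through NF-kB and C/EBP factors. The genes reached mainly by STAT3 are often told apart from those that need both arms. Several of the products bind something in plasma: haptoglobin (Hp) binds free haemoglobin, serum amyloid A proteins (Saa1, Saa2, Saa3) associate with lipoproteins, orosomucoids (Orm1, Orm2) carry lipophilic molecules, and lipocalin 2 (Lcn2) binds bacterial iron carriers. Serpina3n is a secreted protease inhibitor, hepcidin (Hamp) blocks iron export through ferroportin, and Lrg1 is a secreted leucine-rich glycoprotein that modifies TGF-beta signalling.

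Promoter sequence was held for 8 of the 10 genes in a RefSeq table of the build GRCm38.p6, from 250 bases before to 50 after each transcription start. 6 of them are shown, because their genes were correlated over all 12 livers, in coefficients that include the group differences. These are Lrg1, Orm2 and Serpina3n in the set around Lrg1, and Saa1, Saa2 and Lcn2 in the other. With group means removed, no pair among Lrg1, Orm2 and Serpina3n had an adjusted p under 0.05 by permutation. Sequences run 5′ to 3′ on the gene's strand, and capitals mark letters that match any of 5 motifs searched on both strands.
Lrg1 (chr17:56121897-56122196, minus strand): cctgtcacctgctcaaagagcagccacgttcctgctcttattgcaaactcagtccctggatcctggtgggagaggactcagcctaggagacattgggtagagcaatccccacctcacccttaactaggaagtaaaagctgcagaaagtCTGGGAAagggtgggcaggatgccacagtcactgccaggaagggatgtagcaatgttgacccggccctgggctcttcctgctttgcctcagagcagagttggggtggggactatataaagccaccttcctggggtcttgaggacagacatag
Orm2 (chr4:63362199-63362498, plus strand): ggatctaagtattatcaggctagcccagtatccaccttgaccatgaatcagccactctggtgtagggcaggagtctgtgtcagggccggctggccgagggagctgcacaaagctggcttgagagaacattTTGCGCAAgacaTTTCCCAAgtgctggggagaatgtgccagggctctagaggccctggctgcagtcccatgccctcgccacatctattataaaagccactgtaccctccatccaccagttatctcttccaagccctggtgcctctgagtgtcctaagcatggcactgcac
Serpina3n (chr12:104406458-104406757, plus strand): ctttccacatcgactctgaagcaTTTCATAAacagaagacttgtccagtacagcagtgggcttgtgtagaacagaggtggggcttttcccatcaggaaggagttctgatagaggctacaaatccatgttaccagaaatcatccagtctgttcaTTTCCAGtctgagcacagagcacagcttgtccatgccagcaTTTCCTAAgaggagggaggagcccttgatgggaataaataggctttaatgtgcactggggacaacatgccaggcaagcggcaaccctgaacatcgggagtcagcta
Saa1 (chr7:46742931-46743230, minus strand): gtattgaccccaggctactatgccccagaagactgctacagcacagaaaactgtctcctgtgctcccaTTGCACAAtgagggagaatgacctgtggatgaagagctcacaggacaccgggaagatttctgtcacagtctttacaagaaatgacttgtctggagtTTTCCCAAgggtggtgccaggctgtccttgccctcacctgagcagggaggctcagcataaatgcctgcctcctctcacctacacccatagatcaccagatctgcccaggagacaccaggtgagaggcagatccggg
Saa2 (chr7:46751583-46751882, plus strand): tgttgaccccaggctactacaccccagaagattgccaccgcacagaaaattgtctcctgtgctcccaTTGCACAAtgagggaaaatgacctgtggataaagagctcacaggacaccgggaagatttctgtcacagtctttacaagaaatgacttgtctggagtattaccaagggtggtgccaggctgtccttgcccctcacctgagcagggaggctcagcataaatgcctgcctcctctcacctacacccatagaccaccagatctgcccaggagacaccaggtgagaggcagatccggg
Lcn2 (chr2:32387690-32387989, minus strand): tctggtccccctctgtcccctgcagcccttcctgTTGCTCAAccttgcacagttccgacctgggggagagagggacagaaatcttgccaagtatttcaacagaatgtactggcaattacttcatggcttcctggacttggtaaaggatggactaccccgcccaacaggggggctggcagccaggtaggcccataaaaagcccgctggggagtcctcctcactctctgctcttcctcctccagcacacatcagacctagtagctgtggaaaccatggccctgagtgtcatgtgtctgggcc
The motifs were the STAT element TTCNNNGAA, the type 2 interleukin-6 element CTGGGAA or CTGGAAA, the C/EBP element TTNNGNAA, the NF-kB decamer and the BMP response element GGCGCC.

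The type 2 interleukin-6 element occurred in 3 of the 8 promoters and in 18.0% of 32851 windows of the same length. In Lrg1 it began 102 bases before the start, in Serpina3n 97 bases before it, on the opposite strand, and in Saa3 189 bases before it. In Saa3 it overlapped a C/EBP match. The C/EBP element occurred in 6 of 8 promoters against 40.7% of all windows, and in Orm2 it took the palindromic form TTGCGCAA 120 bases before the start. Hamp carried the STAT element as TTCTTGGAA 97 bases before its start, against 8.30% of all windows, and the BMP response element 109 bases before it, against 11.9%. The NF-kB decamer was in 0 of 8 promoters and in 8.46% of windows. The Saa1 and Saa2 promoters were 95.3% identical in a global alignment, whereas Saa1 and Saa3 were 54.1% identical. These matches describe letters in the windows and not binding.

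The RNA was liver RNA by its markers: all 9 measured hepatocyte genes read above the negative control probes, and their mean log2 signal was 18.21 to 18.37 in sons of UCP1-KO dams and 18.09 to 18.31 in sons of WT dams. Lrg1 and Lcn2 are also made by neutrophils. Of 13 measured neutrophil markers, 12 lay at or below the negative controls in both groups, and only the receptor Csf3r did not. Their mean log2 signal ranged from 4.89 to 5.21 in sons of UCP1-KO dams and from 4.84 to 5.09 in sons of WT dams. In a whole liver sample, a change in the number of cells of a type cannot be told apart from a change in RNA per cell.

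Arrays differed in 2 respects that touch the results below. On the first principal component of all 22206 probe sets (19.8% of the variance), arrays 8, 10 and 11 of the UCP1-KO-dam group stood apart at 26.3 to 37.5. The other 3 of that group lay at -2.4 to 1.7, and sons of WT dams at -24.1 to 1.2. The median of the negative control probes was 6.21 ± 0.14 in sons of UCP1-KO dams and 6.39 ± 0.21 in sons of WT dams (mean log2 signal and SD of 6 arrays per group; two-sided p = 0.119 by an exact permutation test). Within the WT-dam group it was 6.41 to 6.62 on arrays 3 to 6 and 6.14 on arrays 1 and 2.

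The comparison of the groups asked which acute phase transcripts differ in liver with the genotype of the mother. Lrg1 was lower in every son of a UCP1-KO dam than in any son of a WT dam, at 2.03-fold lower on average. Orm1, Orm2 and Serpina3n also had lower means in sons of UCP1-KO dams, while Hp and Saa3 had higher ones, and Saa1, Saa2, Lcn2 and Hamp differed by less than their spread. None of these differences passed the test over all probe sets. By limma with Benjamini-Hochberg adjustment, 0 of the 10 genes had an adjusted p under 0.05, against 0.0360% of all probe sets (8 of 22206). At an unadjusted p under 0.05 there were 4 lower genes, against 6.00% of all probe sets, and 2 higher genes, against 7.08%. The median log2 difference of the 10 was -0.04, beside 0.03 over all probe sets. Because the genes were chosen with results known, these shares describe the set and are no evidence for it.

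**Figure D1:**
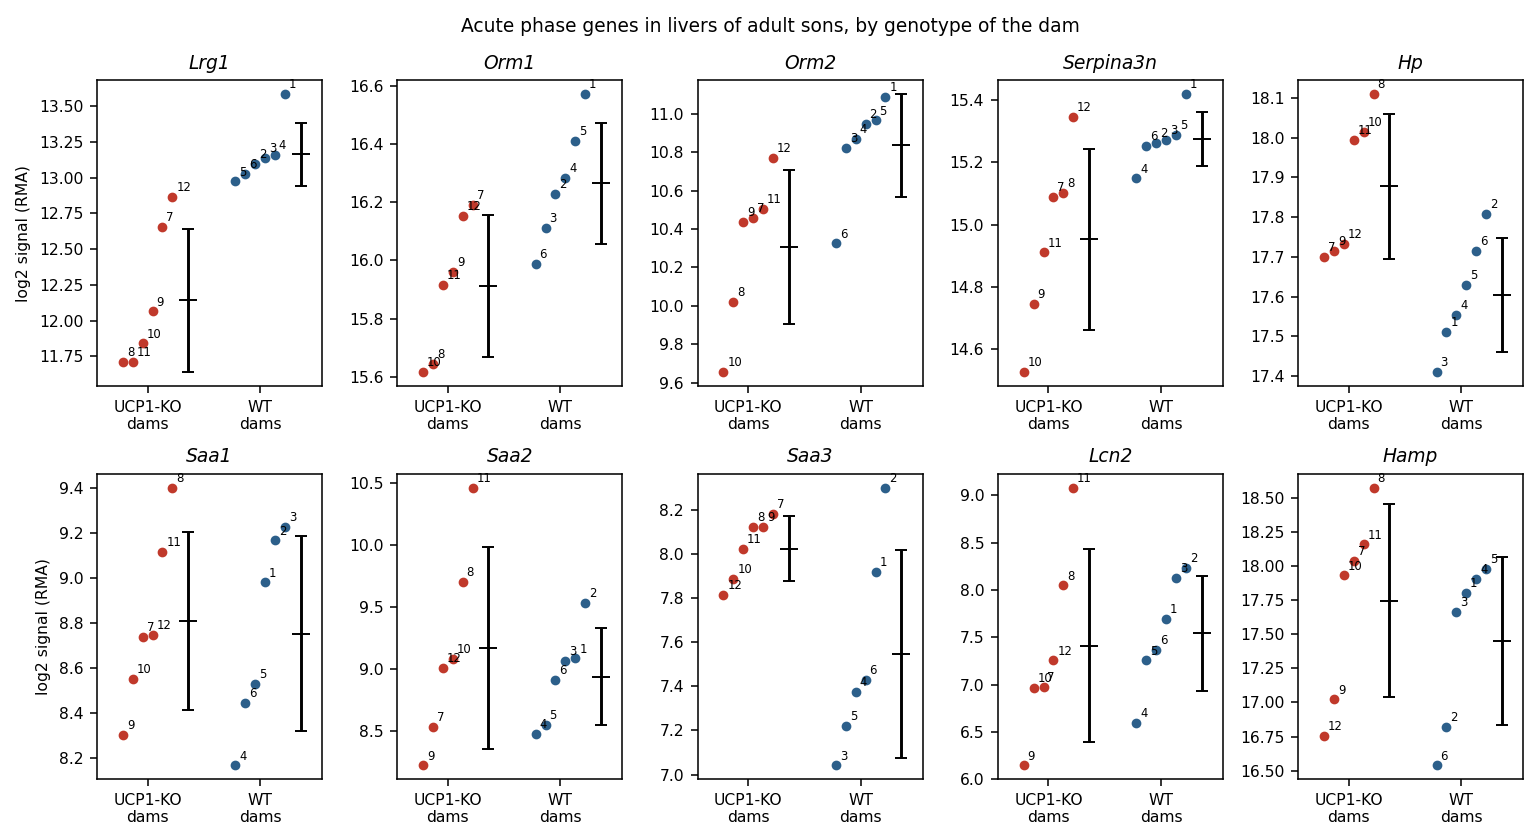
Log2 signal of each acute phase gene in each liver (vertical axis, own scale per gene), for 6 sons of UCP1-KO dams (left, red) and 6 sons of WT dams (right, blue). Numbers are array numbers, and bars give mean ± SD. The groups separate for Lrg1 and overlap for the other 9 genes.

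Lrg1 read from 11.71 to 12.86 with a median of 11.95 in sons of UCP1-KO dams, and from 12.97 to 13.58 with a median of 13.12 in sons of WT dams (probe set TC1700002315.mm.2, log2 signal). The groups did not overlap, which held for 1 of the 10 genes, for 1.05% of all probe sets in either direction and for 0.423% in this one. Within the UCP1-KO-dam group, arrays 8, 9, 10 and 11 lay between 11.71 and 12.06, and arrays 7 and 12 at 12.65 and 12.86 lay close to the WT-dam range. The means were 12.14 ± 0.50 in sons of UCP1-KO dams and 13.16 ± 0.22 in sons of WT dams (SD, n = 6 each), a log2 difference of -1.02 (95% interval -1.44 to -0.61). The adjusted p of 0.0596 (limma, all probe sets) places Lrg1 just outside the threshold. As the gene that named the set, it is given as a description. Without arrays 8, 10 and 11 the difference was -0.63 (adjusted p = 0.501 by limma). Lrg1 passed without UCP1-KO-dam array 7 (-1.12, adjusted p = 0.0262) or array 12 (-1.17, 0.0313) and without WT-dam array 2 (-1.03, 0.0421). Arrays 7 and 12 held the highest Lrg1 values of their group, so leaving either out widens the difference. Leaving out any other single array gave a limma adjusted p from 0.101 to 0.178.

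The orosomucoids, which are acidic lipocalin-fold glycoproteins encoded by neighbouring genes on chromosome 4, shifted in the same direction by less. Orm1 read from 15.62 to 16.19 (median 15.94) in sons of UCP1-KO dams and from 15.99 to 16.57 (median 16.26) in sons of WT dams. Its log2 difference was -0.35 (95% interval -0.65 to -0.05, limma adjusted p = 0.294). Orm2 read from 9.65 to 10.77 (median 10.45) in sons of UCP1-KO dams and from 10.32 to 11.09 (median 10.91) in sons of WT dams, and the difference in means was -0.53 (interval -0.91 to -0.15, adjusted p = 0.219). For both genes arrays 8 and 10 were the lowest of the 12, and array 6 was the lowest of the WT-dam group. Without arrays 8, 10 and 11 the differences were -0.16 for Orm1 and -0.28 for Orm2. How far the probe sets of these related genes tell them apart was not tested.

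Serpina3n read from 14.53 to 15.35 (median 15.00) in sons of UCP1-KO dams and from 15.15 to 15.42 (median 15.27) in sons of WT dams. The sons of WT dams lay close together, with an SD of 0.09 against 0.29 in sons of UCP1-KO dams. Array 12 lay inside the WT-dam range and the other 5 of its group below it. The means differed by -0.32 (95% interval -0.61 to -0.03, adjusted p = 0.333 by limma), and -0.21 without arrays 8, 10 and 11.

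Hp went the other way. This haemoglobin scavenger read from 17.70 to 18.11 (median 17.86) in sons of UCP1-KO dams and from 17.41 to 17.81 (median 17.59) in sons of WT dams. Arrays 8, 10 and 11, at 17.99 to 18.11, lay above all 6 sons of WT dams, while arrays 7, 9 and 12, at 17.70 to 17.73, lay within their range. The means differed by 0.27 (95% interval 0.01 to 0.54, adjusted p = 0.365 by limma), and by 0.11 without those 3 arrays. Across the 12 livers Hp followed the first principal component (Pearson's r = 0.957), and Lrg1 opposed it (r = -0.910). These coefficients are descriptions, as the component was computed from all probe sets including these.

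**Figure D2:**
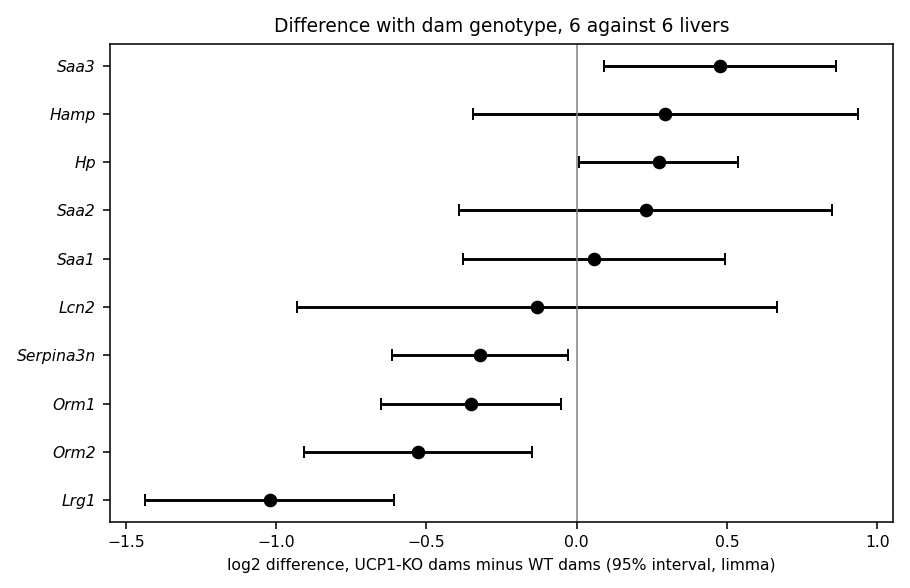
Log2 difference of each acute phase gene, sons of UCP1-KO dams minus sons of WT dams (horizontal axis), with 95% intervals from the limma fit (n = 6 each). Lrg1 lies at -1.02 and Saa3 at 0.48, and the intervals of Saa1, Saa2, Lcn2 and Hamp span 0.

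Among the serum amyloid A genes, which lie together on chromosome 7, only Saa3 had an interval clear of 0. Saa3 read from 7.81 to 8.18 (median 8.07) in sons of UCP1-KO dams and from 7.04 to 8.30 (median 7.40) in sons of WT dams. Its means differed by 0.48 (95% interval 0.09 to 0.86, adjusted p = 0.271 by limma). The low values were those of WT-dam arrays 3 to 6, at 7.04 to 7.43, the same arrays whose negative controls were bright, and WT-dam arrays 1 and 2 read 7.92 and 8.30. Over the 12 arrays Saa3 had a Pearson's r of -0.834 with the negative control median. With that median as a covariate the difference was 0.21 (adjusted p = 0.657 by limma), and without WT-dam arrays 3 to 6 it was -0.084, the opposite direction. That leaves only WT-dam arrays 1 and 2, the highest of their group in Saa3, so the turn follows from which arrays were left out.

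Saa1 read from 8.30 to 9.40 (median 8.74) in sons of UCP1-KO dams and from 8.17 to 9.23 (median 8.76) in sons of WT dams, so that the means lay 0.06 apart (95% interval -0.38 to 0.49, adjusted p = 0.942 by limma). Saa2 read from 8.22 to 10.47 (median 9.05) in sons of UCP1-KO dams and from 8.48 to 9.54 (median 8.99) in sons of WT dams, a difference of 0.23 (interval -0.39 to 0.85, adjusted p = 0.784). Lcn2 read from 6.14 to 9.08 (median 7.11) in sons of UCP1-KO dams and from 6.59 to 8.23 (median 7.53) in sons of WT dams, a difference of -0.13 (interval -0.93 to 0.67, adjusted p = 0.922). In all 3 genes the groups overlapped, and for Saa2 and Lcn2 the range of the sons of WT dams lay inside that of the sons of UCP1-KO dams. Lcn2 differed more between mice of the same group than 99.5% of probe sets (within-group SD 0.84), and Saa2 more than 98.7% (SD 0.64). The median over all probe sets was 0.28. The intervals of Lcn2 and Saa2 are wide accordingly, and 6 livers per group do not tell apart the differences inside them. The direction of Saa1 turned without UCP1-KO-dam array 8 or 11 or WT-dam array 4 or 6, that of Saa2 without UCP1-KO-dam array 11, and that of Lcn2 without UCP1-KO-dam array 9 or WT-dam array 2.

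Hamp also varied widely, with a within-group SD of 0.66, above that of 98.8% of probe sets. It read from 16.76 to 18.57 (median 17.98) in sons of UCP1-KO dams and from 16.54 to 17.98 (median 17.73) in sons of WT dams. In each group 4 livers read 17.66 or more and 2 livers 17.02 or less, arrays 9 and 12 in the first and arrays 2 and 6 in the second. The means differed by 0.29 (95% interval -0.35 to 0.93, adjusted p = 0.723 by limma), and -0.18 without arrays 8, 10 and 11. Its paralog Hamp2 had a difference of 0.30 and ran with it almost exactly (r = 0.980, Spearman's rho = 0.958, permutation p = 1e-05 for each, the smallest that 100000 permutations can give, adjusted p = 0.0012 each over 120 relations). Signal of this near-identical gene pair may be shared between the probe sets.

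The genes were also compared in how they varied together from liver to liver. A correlation over all 12 livers carries the group differences that were known when the genes were chosen, so the count over 12 livers is a description, and values within groups or with group means removed stand beside it. Among the 45 pairs, 12 were correlated over the 12 livers (Pearson's r, permutation test with 100000 permutations, Benjamini-Hochberg adjusted p under 0.05 over the pairs), 9 positively and 3 negatively, and 9 by Spearman's rho. All 12 fell within 2 sets, Saa1 with Saa2 and Lcn2, and Lrg1 with Orm1, Orm2, Serpina3n and Hp. Saa3 and Hamp were in none of them. After the group means were taken out, 5 pairs passed: the 3 pairs of the Saa1 set, Orm1 with Orm2, and Lrg1 with Orm1. Without arrays 8, 10 and 11, 2 pairs passed, Saa1 with Lcn2 and Saa2 with Lcn2 (exact permutation, n = 9). All pairs share their 12 arrays and the normalization between them.

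Saa2 and Lcn2 were the closest pair of that set, with r = 0.916 over 12 livers (rho = 0.839, permutation p = 5e-05, adjusted p = 0.00112). The relation was seen within each group, with r = 0.976 in sons of UCP1-KO dams (exact permutation p = 0.00556, n = 6) and r = 0.895 in sons of WT dams (exact permutation p = 0.0194, n = 6). Array 11 was highest in both genes, at 10.47 and 9.08, and array 9 lowest, at 8.22 and 6.14, and without these 2 livers r was 0.801. Saa1 and Lcn2 had r = 0.837 over 12 livers (rho = 0.832, adjusted p = 0.00657), 0.837 within sons of UCP1-KO dams (exact permutation p = 0.0319, n = 6) and 0.965 within sons of WT dams (exact permutation p = 0.00556, n = 6). Saa1 and Saa2 had r = 0.748 over 12 livers (rho = 0.818, adjusted p = 0.0197), 0.794 within sons of UCP1-KO dams (exact permutation p = 0.0667, n = 6) and 0.838 within sons of WT dams (exact permutation p = 0.0444, n = 6). The Saa1 and Saa2 genes are near-identical, so their signals may be shared between probe sets, whereas Lcn2 is an unrelated gene on chromosome 2.

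**Figure D3:**
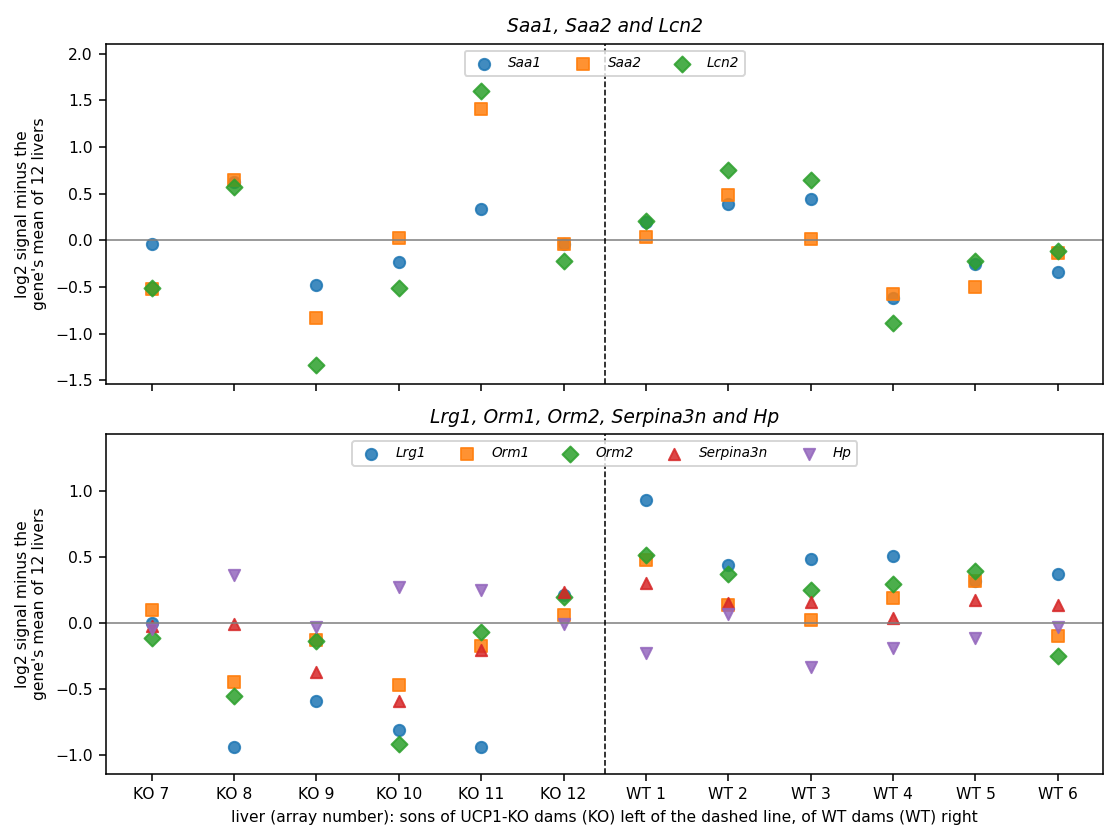
Log2 signal of each gene minus its mean over 12 livers (vertical axis), by liver (horizontal axis, sons of UCP1-KO dams left of the dashed line and sons of WT dams right). Saa1, Saa2 and Lcn2 (upper panel) are high on arrays 8, 11 and 2 and low on arrays 9 and 4, while in the lower panel Lrg1 is low and Hp high on arrays 8, 10 and 11, and Orm1 and Orm2 are lowest on arrays 8 and 10.

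In the other set, the coefficients of Lrg1 over 12 livers, counted among the 12 pairs, carry the separation of its groups, so its relations are given here within groups. Lrg1 and Orm1 had r = 0.847 within sons of UCP1-KO dams (exact permutation p = 0.0542, n = 6) and 0.643 within sons of WT dams (exact permutation p = 0.175, n = 6). Lrg1 and Hp had r = -0.824 (exact permutation p = 0.0597, n = 6) in sons of UCP1-KO dams and -0.430 in sons of WT dams (exact permutation p = 0.432, n = 6). Lrg1 and Orm2 had r = 0.639 in sons of UCP1-KO dams (exact permutation p = 0.161, n = 6) and 0.499 in sons of WT dams (exact permutation p = 0.233, n = 6). Lrg1 and Serpina3n had r = 0.621 in sons of UCP1-KO dams (exact permutation p = 0.194, n = 6) and 0.666 in sons of WT dams (exact permutation p = 0.231, n = 6). None of these 8 coefficients had a p under 0.05. Orm1 and Orm2 had the highest r of all pairs over 12 livers, 0.922 (rho = 0.902, permutation p = 2e-05, adjusted p = 0.0009). Within groups r was 0.883 in sons of UCP1-KO dams (exact permutation p = 0.025, n = 6) and 0.851 in sons of WT dams (exact permutation p = 0.0153, n = 6). With group means removed it was 0.865, below the 0.954 of Saa2 with Lcn2. Orm1 opposed Hp with r = -0.782 over 12 livers (rho = -0.713, adjusted p = 0.0173), -0.878 within sons of UCP1-KO dams (exact permutation p = 0.0208, n = 6) and -0.223 within sons of WT dams (exact permutation p = 0.672, n = 6). Without arrays 8, 10 and 11 the coefficient over the remaining livers was -0.357. Those 3 livers, chosen after seeing the data, held the highest Hp values of the 12, so leaving them out narrows the range of Hp. How far the relation rests on them was not tested.

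**Figure D4:**
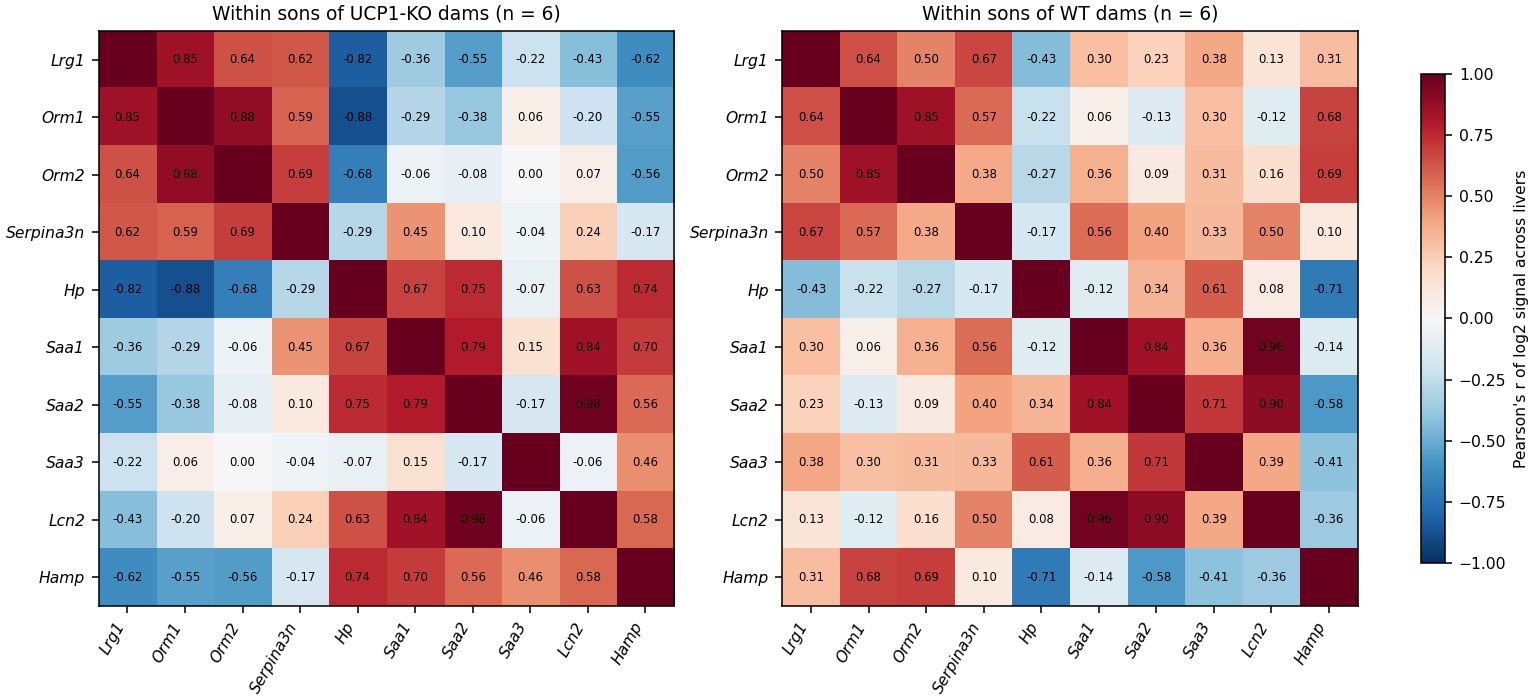
Pearson's r of log2 signal for each pair of acute phase genes (rows and columns), within 6 sons of UCP1-KO dams (left) and 6 sons of WT dams (right), from -1 (blue) to 1 (red). Saa1, Saa2 and Lcn2 form a block at 0.79 to 0.98 in both panels, and Orm1 with Orm2 reads 0.88 and 0.85.

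The genes most like Lrg1 and Lcn2 across the 12 livers were taken from 9804 genes with a mean above the negative controls, by Pearson's r as a description. For Lcn2, the member with the widest spread, Saa2 ranked 1st (0.916) and Saa1 3rd (0.837) of the 9804. Between and after them came Atp6v0d2, a subunit of the vacuolar proton pump (0.895), the apolipoprotein L gene Apol9a (0.833) and the phosphatase gene Dusp12 (0.830). For Lrg1 the closest were Arhgap1 (0.945), the mitochondrial serine hydroxymethyltransferase Shmt2 (0.941), Gulo of vitamin C synthesis (0.929), Masp2, a protease of the lectin complement pathway (0.924), and R3hdm4 (0.920). All 5 were lower in sons of UCP1-KO dams, by 0.36 to 0.92 on the log2 scale. That direction follows largely from picking them by likeness to Lrg1 over 12 livers, whose groups separate, and is no further result. With group means removed their r with Lrg1 was 0.771 to 0.844. Orm1 ranked 37th (0.861) and Hp 9773rd of 9804 (-0.848), in coefficients over 12 livers that include the separation of the groups in Lrg1.

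The other positive acute phase genes were set beside these as a list. Of 40 listed genes 34 were measured, and 0 passed in either direction by limma, with 5 at an unadjusted p under 0.05 (2 higher, 3 lower), a share near the 13.1% of all probe sets, and a median log2 difference of 0.05. Lgals3bp, a secreted glycoprotein that binds galectins, had the smallest p of them. It read 9.76 ± 0.62 in sons of UCP1-KO dams and 10.81 ± 0.26 in sons of WT dams (SD, n = 6 each), with a log2 difference of -1.04 (adjusted p = 0.0891) and no overlap between groups. Orm3 read 6.02 ± 0.50 in sons of UCP1-KO dams and 6.88 ± 0.64 in sons of WT dams, a difference of -0.86 (adjusted p = 0.189). Its mean in sons of UCP1-KO dams lay below the mean negative control median of that group, 6.21, so the size of that difference is uncertain. The mannose-binding lectin gene Mbl2 read 15.02 ± 0.54 in sons of UCP1-KO dams and 14.47 ± 0.13 in sons of WT dams, 0.55 higher (adjusted p = 0.248). Fibrinogen chains stayed close between groups, with log2 differences of 0.05 for Fga (interval -0.18 to 0.29), 0.09 for Fgb and 0.10 for Fgg, and those of C-reactive protein (Crp) and amyloid P (Apcs) were 0.10 and 0.14. Of 16 measured negative acute phase genes, whose products fall in inflammation, 0 passed and 0 had an unadjusted p under 0.05. Their differences ran from -0.35 for Igfals to 0.35 for Serpina6, with albumin (Alb) at 0.09.

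Upstream of these genes, none of 21 measured cytokines and receptors passed by limma, and 3 had an unadjusted p under 0.05, against 13.1% of all probe sets. Of these 3, Il6 and Csf3 lay below the negative controls in both groups, and the receptor chain gene Il1rap lay above them. The cytokines Il6, Osm, Lif and Tnf, with group means of 3.38 to 4.99, lay below the negative controls at 6.21 and 6.39 in both groups. The interleukin-1 gene Il1a lay above the negative controls, with means of 7.28 in sons of UCP1-KO dams and 7.49 in sons of WT dams. The means of the other interleukin-1 gene, Il1b, lay close to the negative controls in both groups. Of the receptors, Il6ra read 10.69 in sons of UCP1-KO dams and 10.48 in sons of WT dams, and Il6st, which encodes gp130, read 13.57 in sons of UCP1-KO dams and 13.44 in sons of WT dams. None of 30 measured transducers and inhibitors passed either, and 5 had an unadjusted p under 0.05, all lower, against 6.00% of all probe sets in that direction. Nfkbib, an inhibitor of NF-kB, had the smallest p of these, with a log2 difference of -0.55 (adjusted p = 0.214). Stat3 had 0.24 (interval -0.07 to 0.55). Socs3, a STAT3 target that feeds back on the receptor, read 4.95 in sons of UCP1-KO dams and 5.15 in sons of WT dams, below the negative controls in both groups, so its level carries little information here.

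Hepcidin transcription is also driven by BMP6 through SMAD proteins. Of 29 measured genes of that route and of iron handling, 0 passed by limma, and 6 had an unadjusted p under 0.05, 5 higher and 1 lower, against 7.08% and 6.00% of all probe sets. The type II receptor gene Acvr2a read 10.12 ± 0.34 in sons of UCP1-KO dams and 9.42 ± 0.16 in sons of WT dams (SD, n = 6 each), a difference of 0.70 with no overlap (adjusted p = 0.0891). The ligand gene Bmp6 had a difference of 0.43, the receptor gene Bmpr1a 0.43 and the target gene Id1 0.63 (adjusted p = 0.249 to 0.365). No relation of Hamp with Bmp6, Id1, Smad6, Smad7 or Atoh8 was detected across the 12 livers, and Acvr2a and Bmpr1a were not set against it. With Bmp6 its r was 0.395 (permutation p = 0.202) and its rho 0.511 (permutation p = 0.0946, adjusted p = 0.454 over 120 relations). With Id1 its r was 0.255, with Smad6 0.140, with Smad7 0.0188 and with Atoh8 0.019 (adjusted permutation p 0.774 to 0.979). Among all 120 relations of the 10 genes with 12 regulators and paralogs, 6 passed by Pearson's r and 2 by Spearman's rho. Orm3 took part in 3 of the 6, with Orm1, Orm2 and Serpina3n (r = 0.827, 0.826 and 0.798). Orm3 read near the negative controls, and how far its probe set picks up Orm1 or Orm2 was not tested, so these 3 are uncertain. The others were Hamp with Hamp2, Orm1 with Smad7 (-0.806) and Hp with Bmp6 (0.800). By Spearman's rho, Hamp with Hamp2 and Serpina3n with Orm3 passed (adjusted permutation p = 0.0012 and 0.0024). Orm1 and Orm2 with Orm3 did not (adjusted permutation p = 0.0682 each). Neither did Orm1 with Smad7 or Hp with Bmp6 (adjusted permutation p = 0.0826 and 0.231). The Pearson coefficients of these last 2 relations carry the group differences, and with group means removed r was -0.756 and 0.705. Without arrays 8, 10 and 11 r was -0.823 for Orm1 with Smad7 and 0.336 for Hp with Bmp6. The mean of Smad7 in sons of WT dams, 6.21, lay below the negative controls of that group at 6.39. Receptors and binding partners of acute phase proteins, 18 measured, included 0 that passed and 1 with an unadjusted p under 0.05, against 13.1% of all probe sets, the TGF-beta receptor gene Tgfbr1 at 0.58 (adjusted p = 0.188).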

How the data were processed

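Liver RNA of 12 mice was hybridised to 1 array each. The authors deposited a log2 signal for each probe set and array. The submitters' processing notes name RMA and Transcriptome Analysis Console; versions and genome build are not given in the sources used here. RMA normalizes between arrays and compresses differences of dim probe sets. Array number limits the precision.

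Columns were assigned through sample identifiers and groups through the dam genotype. After 6640 control rows were left out, 22206 probe sets were tested, 19572 with 1 symbol. limma 3.58.1 (R 4.3.3; lmFit, eBayes, two-sided) was fitted with dam genotype as the only term on all 12 arrays, with Benjamini-Hochberg adjustment over the 22206 and calls at an adjusted p under 0.05. The fit and the correlation step were tested on simulated data. Correlations used 100000 permutations, exact ones below 10 livers. Motifs were searched and promoters aligned with Biopython 1.88.

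Members, gene lists and partners were chosen with earlier results of these data known, and the 12 partners in the correlation family after group means had been seen. Named are all members, genes of smallest p in each list and those that a result turns on, and the 5 genes most like Lrg1 and Lcn2; background genes such as fibrinogens, Il6 and Socs3 were named after their values were seen. Alternatives were another normalization, filters, variance models, a covariate and subsets of arrays.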

Additional observations from a re-analysis of the deposited data

Results flagged for a closer look

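In groups of 6, a liver was singled out when its gap to the nearest other exceeded Dixon's 95% critical share of the group's range, a limit that chance passes in about 1 of 20 groups. Of 82 groups examined for 41 named genes, 4 had such a liver. Lrg1 on WT-dam array 1 read 13.58, against 12.97 to 13.16 in the other 5 sons of WT dams, and without it the log2 difference was -0.94. Orm2 on WT-dam array 6 read 10.32, against 10.82 to 11.09 in the others of that group. Apol9a on UCP1-KO-dam array 11 read 13.34, against 11.83 to 12.35, and this was also the liver highest in Saa2 and Lcn2. Igfals, the acid-labile subunit gene, on UCP1-KO-dam array 10 read 11.06, against 11.82 to 12.20.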

How the results depend on the processing

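Over 22 alternatives the differences of Lrg1 (-1.20 to -0.63), Orm1, Orm2, Serpina3n and Hp kept their direction. Lrg1 passed in 5 of them, with adjusted p from 0.0262 to 0.553. Main counts were 8 probe sets, 0 members, 0 genes of all lists and 12 pairs. Leaving out the dimmest 50% gave 32 probe sets, 1 member (Lrg1, adjusted p = 0.0488) and 1 list gene, where fewer probe sets were tested. A variance trend with robust fitting gave 22, 1 (Lrg1, 0.0466) and 1. The negative control covariate gave 2 probe sets and put Saa1 at -0.018. Without WT-dam arrays 3 to 6, which leaves only arrays 1 and 2 of that group, there were 0 probe sets and 4 pairs. Saa1 was then at -0.26, Saa2 at -0.14 and Saa3 at -0.084. Without UCP1-KO-dam arrays 8, 10 and 11, chosen after seeing the data, there were 0 probe sets and 2 pairs, with Saa1 at -0.16, Saa2 at -0.35 and Hamp at -0.18. Removing group means left 5 pairs. With 1 array left out, probe sets called ran from 1 (without UCP1-KO-dam array 8) to 112 (without WT-dam array 2), members from 0 to 1, list genes from 0 to 2 and pairs from 8 to 12. The difference then ran from -0.061 to 0.16 for Saa1, -0.029 to 0.42 for Saa2 and -0.47 to 0.12 for Lcn2. Apart from fewer probe sets or arrays, the cause of these shifts was not tested. No paired analysis was possible because the labels name no dam, litter or pairing. Signals near the negative controls, such as Saa3 and Lcn2, limit what can be read.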

Other observations

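Hamp had coefficients of opposite sign in the groups with several genes, picked here from the within-group coefficients of all 45 pairs. In sons of UCP1-KO dams its Pearson's r was -0.546 with Orm1, -0.558 with Orm2 and 0.742 with Hp, whereas in sons of WT dams it was 0.679, 0.691 and -0.709 (exact permutation p 0.0875 to 0.253 for the 6 coefficients, n = 6 each). The difference between the groups was not tested, and none of these pairs passed over the 12 livers. Metallothioneins, which are also induced in the acute phase, spread far more widely than any of the 10 genes. Mt1 read from 11.29 to 16.70 in sons of UCP1-KO dams and from 10.87 to 16.16 in sons of WT dams. Mt2 read from 8.26 to 15.59 in sons of UCP1-KO dams and from 8.21 to 14.91 in sons of WT dams. The 8 measured sinusoidal endothelial markers included 0 that passed by limma, with a median log2 difference of 0.03. At an unadjusted p under 0.05 there were 2, 1 in each direction, against 13.1% of all probe sets. Lyve1 and Stab2 were the extremes of the list, at 0.94 and -0.74 (limma adjusted p = 0.191 and 0.175).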
